A study of Mus musculus with 20 samples.

Results

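The Myc vector was compared with the control (Ctrl) vector in Trim33-WT p19/Nras cells, a murine liver cancer line from a tumor that Nras had induced in p19/Arf-null mice. The comparison used 4 RNA-seq libraries of the 20 in the series, 2 labelled WT Ctrl and 2 labelled WT Myc, and covered all 13107 genes of the deposited table, of which the filter on low counts removed 0. Every cell in the comparison shared the p19/Arf-null background, the Nras oncogene and a control guide RNA (sgCtrl) in place of a guide against Trim33. The WT Ctrl cells carried the empty pWZL vector and the WT Myc cells a Myc vector. The cells were grown in culture without further treatment. The other 8 libraries of the same experiment came from the Trim33 knockout lines KO1 and KO2 with the same vectors, 2 libraries for each line and vector. They served here to set the spread and to test whether the fold change between vectors differed. The word effect below stands for this fold change, and the part of Myc itself in it was not tested. The cell line is a single tumor-derived line, and the labels do not say whether replicate libraries came from separate cultures, so p-values measure only the spread between these libraries. Whether the vector carried mouse or human Myc is not given in the sources used here.

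Myc is a transcription factor that pairs with Max and binds the E-box sequence CACGTG, while members of the Mxd family, Mnt and Mga compete for the same partner. In liver and other tissues it is known for driving ribosome production, nucleotide synthesis, glycolysis and entry into S phase, and for repressing cell-cycle inhibitors, adhesion genes and matrix genes together with Miz1. Excess Myc also strains DNA replication, and the study asked how Trim33 takes part in that stress. The comparison here addresses how transcript levels differed between the Myc and Ctrl vectors in Trim33-WT cells.

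The 4 libraries held 14753177 to 16591686 counts, and the 12 libraries of the experiment 14753177 to 17949430. Levels are given as CPM, counts scaled to effective library sizes, and a gene was called at a Benjamini-Hochberg adjusted p below 0.01 in edgeR's quasi-likelihood test over all 13107 genes. The libraries labelled WT Myc were the least alike of any replicate pair in the experiment: the SD over genes of the log2 ratio between replicates was 0.212, against 0.132 for WT Ctrl.

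The targeted gene and line-specific genes were used to check the labels. Trim33 (chr3:103083216-103162691, mm9) stood at 246 and 258 CPM in WT Ctrl and at 131 and 155 CPM in the libraries labelled WT Myc, a log2 fold change of -0.82 ± 0.069 (SE, n = 2 and 2, edgeR adjusted p = 6.98e-08). The WT Myc values lay near the mean of 127 CPM in KO1 Ctrl and below the mean of 204 CPM in KO2 Ctrl, so that the Trim33 transcript did not separate WT from KO libraries. A guide RNA need not lower the transcript of the gene it cuts. Genes that tell the Ctrl lines apart gave a clearer reading. Rin3 stood at 17.5 and 21.9 CPM in WT Ctrl, at 26.3 and 27.3 CPM in the libraries labelled WT Myc, and at no more than 0.581 CPM in each of the 8 KO libraries. Plcg2 stood at 18.7 and 18.1 CPM in WT Ctrl, at 13.3 and 13.8 CPM in WT Myc and at no more than 0.2 CPM in the KO libraries. Grem1, a secreted antagonist of BMP ligands, stood at 42.0 and 41.8 CPM in WT Ctrl and at 12.3 and 13.1 CPM in WT Myc, and Peg3, an imprinted zinc-finger gene, at 59.7 and 54.0 CPM and then at 10.6 and 18.9 CPM. Genes were taken as present at 5 CPM or more, and as absent at 3 counts or fewer, in both libraries of a group. Of 29 genes present in WT Ctrl and absent in KO1 Ctrl, 14 were present and 0 absent in both WT Myc libraries. Of 22 genes present in KO1 Ctrl and absent in WT Ctrl, 0 were present and 14 absent in both WT Myc libraries. The remaining genes of each set met neither bound in both WT Myc libraries. By these genes the libraries labelled WT Myc went with the WT line, while Trim33 went against that label; they are named by their labels here. The correlation of log2 CPM over 13107 genes, which share each library's depth, was 0.971 and 0.973 between the WT Myc libraries and WT Ctrl. The libraries labelled KO1 Myc were more like KO2 Ctrl (0.983 and 0.984) than KO1 Ctrl (0.969 and 0.97), and those labelled KO2 Myc more like KO1 Ctrl (0.984 and 0.982) than KO2 Ctrl (0.964 and 0.963). For this reason the fold change between vectors in the KO lines is given below as the mean over both, which does not depend on which number a library carries. Where KO1 Myc and KO2 Myc are given apart, they are named by their labels.

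**Figure D1:**
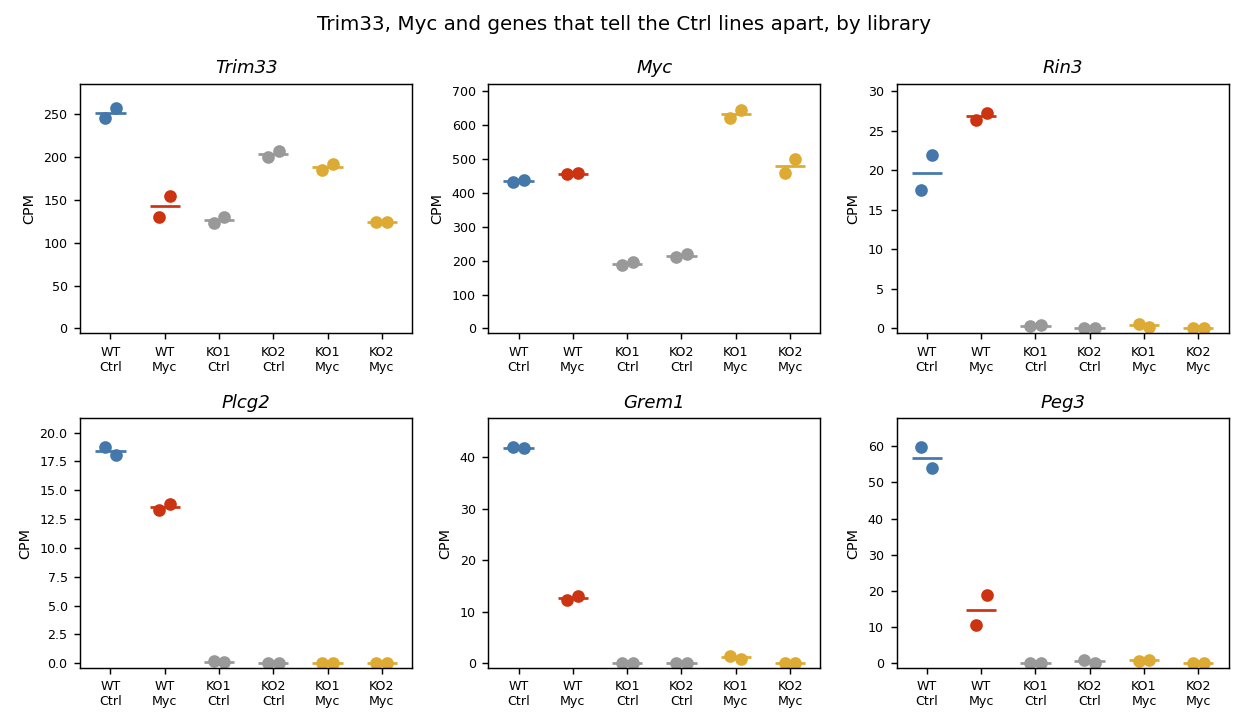
CPM (linear axes from 0) of Trim33, Myc and 4 genes that tell the Ctrl lines apart in the 12 libraries of the experiment, with 1 point per library and a bar at the group mean. Rin3, Plcg2, Grem1 and Peg3 are present in both WT groups and near 0 in the KO groups, whereas Trim33 in WT Myc (131 and 155 CPM) lies within the range of the KO groups, and Myc differs little between WT Ctrl and WT Myc (433 to 458 CPM).

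Myc itself (chr15:61816946-61821929, mm9) stood at 433 and 439 CPM in WT Ctrl and at 456 and 458 CPM in the libraries labelled WT Myc. Although the groups did not overlap, the rise was 0.07 ± 0.055 on the log2 scale and was not called (edgeR adjusted p = 0.31). In the KO lines the group means were 191 CPM in KO1 Ctrl and 214 CPM in KO2 Ctrl, against 633 CPM in KO1 Myc and 479 CPM in KO2 Myc by their labels. The mean rise there was 1.44, and the difference between WT cells and the KO lines was -1.38 ± 0.068 (edgeR adjusted p = 3.44e-10). Counts of Myc sum the endogenous gene and any vector transcript that aligned to it, and their shares were not tested. They do not measure Myc protein. The paper reports that endogenous Myc mRNA and protein fell with loss of Trim33. It found little effect of that loss on exogenous Myc protein in most experiments. Nras, the oncogene of the model, stood at 977 and 937 CPM in WT Ctrl and at 1090 and 916 CPM in WT Myc, overlapping levels.

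Beyond Myc itself, the WT Myc and WT Ctrl libraries differed in 5807 of 13107 genes, 44.3% of all tested. Of these, 2837 genes (21.6%) were higher and 2970 (22.7%) lower in the libraries labelled WT Myc. The counts for gene lists below are to be read beside these shares of all genes. When libraries were scaled by their totals alone, 60.1% of the called genes were higher, against 48.9% here. Most called differences were small: the median log2 fold change was 0.57 among genes called higher and -0.53 among those called lower, and 1066 genes (18.4% of those called) changed by 2-fold or more, 595 upward and 471 downward. The median over all genes was 0.0069. Calls depend on single libraries, since without WT Ctrl replicate 2 there were 1820 genes called higher.

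The fold change moved with transcript length. Over 8904 genes with a transcript length and a mean of at least 5 CPM, the Spearman correlation of the log2 fold change with length was -0.276, a description over genes of the same libraries. Between the 2 libraries labelled WT Myc, the log2 ratio of replicate 2 to replicate 1 had a correlation of 0.649 with length, against 0.248 between the WT Ctrl libraries. Of 521 genes with transcripts of up to 1000 bases, 40.1% were called higher and 9.4% lower, and the median log2 fold change was 0.23. Of 408 genes with transcripts over 8000 bases, 8.33% were called higher and 49.8% lower, with a median of -0.30. The KO lines showed medians of 0.016 and -0.047 in the same classes. RNA integrity was not given in the sources used here, and its part in these differences was not tested. Where a gene group is made up of short or long transcripts, its value after a correction for length and GC content in each library, chosen after seeing the data, is given beside it.

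**Figure D2:**
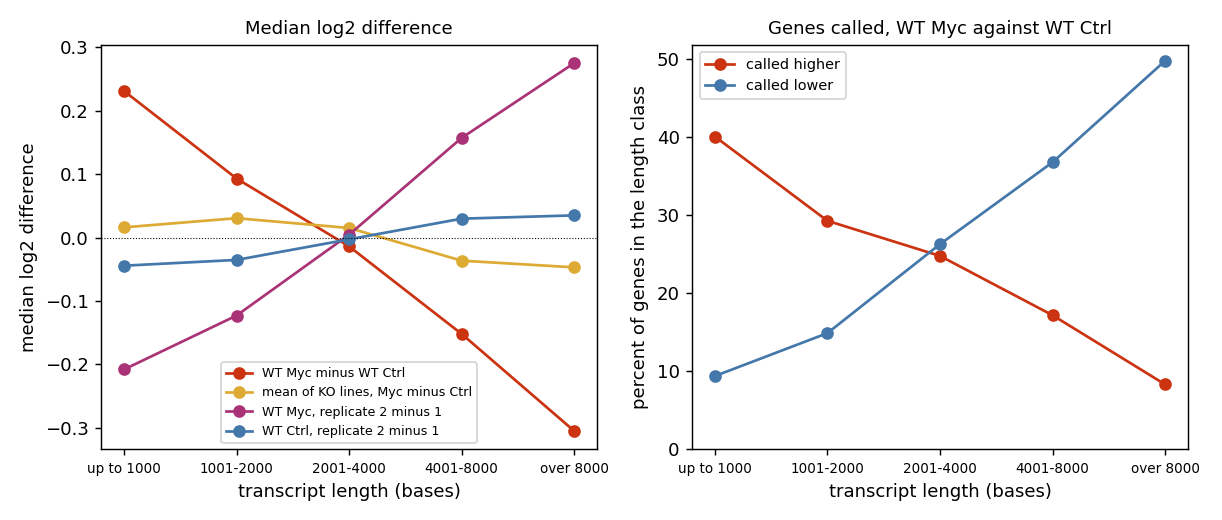
Left, median log2 difference (vertical axis) by transcript length class in bases (horizontal axis) for WT Myc minus WT Ctrl, for the mean of the KO lines, and between replicates. Right, percent of the genes in each class called higher or lower in WT Myc. The WT effect runs from 0.23 in the shortest class to -0.30 in the longest, and the WT Myc replicates differ along the same axis, from -0.21 to 0.28.

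Among called genes with a mean of at least 5 CPM and no overlap between groups, the 10 largest rises were of Rasl11a, Ripply1, C3, Slpi, P2ry14, Atoh8, Txnip, C1ra, Neurl3 and Trpm6. Txnip (chr3:96361880-96365806, mm9), a thioredoxin-binding protein that restrains glucose uptake, stood at 16.6 and 19.5 CPM in WT Ctrl and at 169 and 149 CPM in the libraries labelled WT Myc, 8.77-fold higher (edgeR adjusted p = 4.38e-11). It rose as much in the KO lines, by 3.35 on the log2 scale, and the difference of -0.22 ± 0.16 was not called. C3 (chr17:57343397-57367559, mm9), the central component of complement, stood at 3.46 and 3.42 CPM in WT Ctrl and at 42.7 and 47.6 CPM in WT Myc, 13.1-fold higher. C1ra, a protease that starts the classical complement pathway, went from 1.77 and 1.71 CPM to 10.8 and 11.2 CPM. Slpi, a secreted inhibitor of leukocyte proteases, went from 0.989 and 0.752 CPM to 11.2 and 8.52 CPM. That the groups of these genes do not overlap follows from the rule that chose them. Of all 13107 genes, both WT Myc libraries lay above both WT Ctrl libraries in 4981 and below them in 4882.

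Rasl11a, a small Ras-like GTPase, had the largest log2 fold change among these 10 rises, 4.36 ± 0.25, with 1.06 and 0.273 CPM in WT Ctrl and 13.4 and 14.1 CPM in WT Myc. Ripply1, a transcriptional repressor of somite formation, stood at 2.05 and 2.26 CPM and then at 30.8 and 27.6 CPM. Atoh8, a basic helix-loop-helix factor, stood at 1.98 and 1.504 CPM and then at 16.8 and 17.2 CPM, and in the KO lines its mean effect was -0.19. P2ry14, a receptor for UDP-sugars, reached 13.0 and 13.6 CPM. Neurl3, a ubiquitin ligase, reached 34.0 and 31.1 CPM, and Trpm6, a magnesium channel, reached 19.7 and 25.3 CPM, each from below 6 CPM in both WT Ctrl libraries. For each of the 10 largest rises other than Txnip the effect was larger in WT cells than in the mean of the KO lines, with a called difference. As the genes were picked by their rise in WT cells, a larger effect there is in part set by that choice. Most of these genes were low in WT Ctrl, so their folds rest on few reads in that group.

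By the same rule the 10 largest falls were of Car6, Plet1, Ube2ql1, Angptl6, Fam171b, Slit2 and 4 Zscan4 genes. Car6 (chr4:149561124-149575441, mm9), a secreted carbonic anhydrase, fell from 10.5 and 13.7 CPM in WT Ctrl to 0.52 and 0.177 CPM in the libraries labelled WT Myc, a log2 fold change of -5.12 ± 0.30. Ube2ql1 (chr13:69841713-69878775, mm9), a ubiquitin-conjugating enzyme, was the best measured, at 120 and 122 CPM in WT Ctrl and 11.8 and 10.2 CPM in WT Myc, 11-fold lower (edgeR adjusted p = 2.77e-13). Fam171b, a membrane protein, fell from 46.8 and 55.8 CPM to 5.72 and 6.15 CPM. Slit2, a guidance ligand for Robo receptors, fell from 20.5 and 21.4 CPM to 2.28 and 2.60 CPM. Plet1, a surface protein of epithelial progenitors, went from 20.6 and 24.9 CPM to 1.89 and 1.54 CPM, and Angptl6, a secreted angiopoietin-like factor, went from 14.1 and 16.0 CPM to 1.63 and 1.48 CPM.

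Zscan4 genes encode zinc-finger proteins known from the embryo at the time its genome switches on and from telomere maintenance in stem cells. All 6 tested, Zscan4a to Zscan4f, fell, with log2 fold changes from -4.77 to -4.16. Zscan4c (chr7:11591071-11595896, mm9) stood at 16.5 and 16.4 CPM in WT Ctrl and at 0.585 and 0.828 CPM in WT Myc, and Zscan4f (chr7:11983264-11988090, mm9) at 17.3 and 18.2 CPM and then 0.65 and 0.887 CPM. In the list of Zscan4 and Usp17l genes, 8 of 10 fell and 0 rose, with a median of -4.24, and the mean effect in the KO lines had a median of -0.13. The copies are nearly identical and lie together on chromosome 7, so how reads were split among them is uncertain and they are best read as 1 signal.

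**Figure D3:**
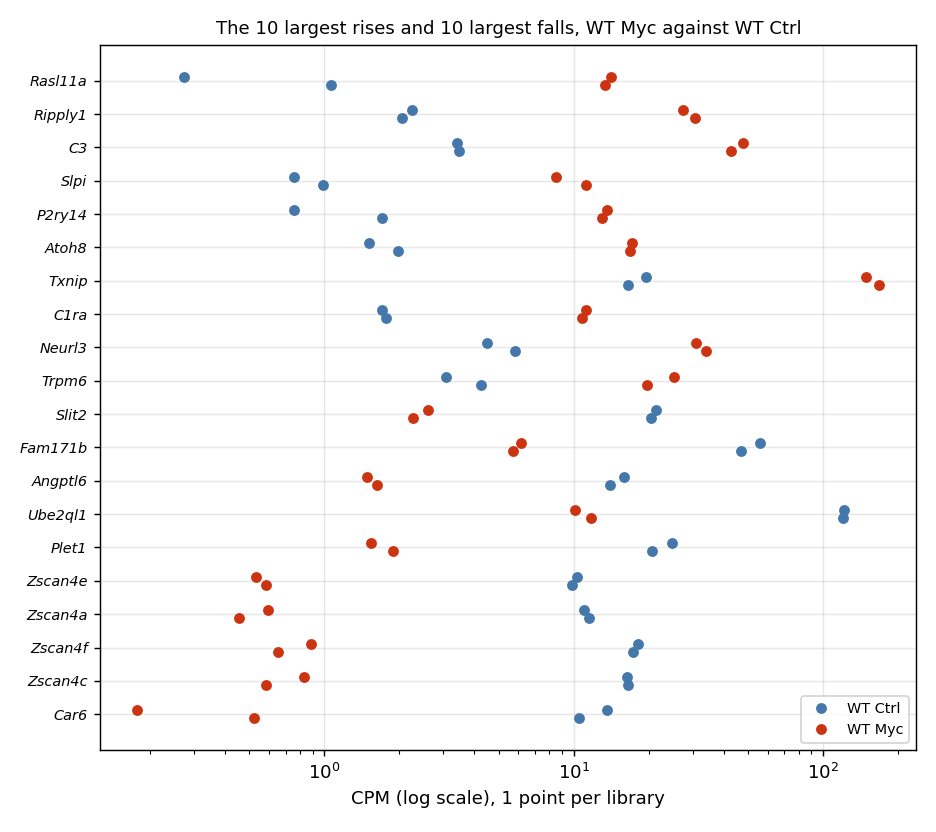
CPM (horizontal axis, log scale) of the 20 genes that rose or fell most, 10 each way, with 1 point per library. A lack of overlap between the groups was part of the rule that chose these genes. Most of the rises start from under 6 CPM in WT Ctrl.

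The E-box bound by Myc and Max was searched in the promoters of the tested genes, taken from RefSeq as 250 bases before to 50 after each start (GRCm38.p6). The letters CACGTG read the same on both strands, as do the CGCG letters searched for comparison, and neither motif overlaps the other. Promoters matched for 9796 genes, and at least 1 CACGTG was present for 1138 of them (11.6%), against 7.15% of all 32851 promoters counted singly. It was present for 11.1% of the genes called higher, 14.5% of those called lower and 10.6% of those not called. Of the 1138 genes, 237 were called higher (20.8%) and 325 lower (28.6%), beside 21.8% and 22.9% among all genes with a promoter, and their median log2 fold change was -0.057. CGCG was present for 76.2%, 75.7% and 74.0% of the genes called higher, lower and not called. Among genes that changed at least 2-fold, CACGTG was present for 8.02% of those higher and 8.96% of those lower. A match of letters says nothing of binding. The promoters below are those of the 3 genes among the 20 largest changes with the motif in a matched promoter, of Ldha, a glycolytic Myc target with 2 copies, and of Cdk4, a cell-cycle Myc target with 4 copies; the capitals mark CACGTG.
Atoh8, chr6:72235528-72235827, minus strand: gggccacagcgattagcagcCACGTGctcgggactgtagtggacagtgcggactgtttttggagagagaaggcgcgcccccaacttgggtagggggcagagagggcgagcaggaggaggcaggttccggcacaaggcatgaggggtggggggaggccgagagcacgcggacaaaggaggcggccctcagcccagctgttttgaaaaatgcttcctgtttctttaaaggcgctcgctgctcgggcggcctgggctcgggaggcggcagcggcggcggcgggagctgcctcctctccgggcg
Slpi, chr2:164356458-164356757, minus strand: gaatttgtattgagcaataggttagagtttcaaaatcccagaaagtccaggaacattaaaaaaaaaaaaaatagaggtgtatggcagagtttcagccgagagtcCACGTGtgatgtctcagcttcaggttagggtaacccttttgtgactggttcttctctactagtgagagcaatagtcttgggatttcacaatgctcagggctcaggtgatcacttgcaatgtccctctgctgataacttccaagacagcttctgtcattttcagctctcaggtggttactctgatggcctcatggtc
Car6, chr4:150201086-150201385, minus strand: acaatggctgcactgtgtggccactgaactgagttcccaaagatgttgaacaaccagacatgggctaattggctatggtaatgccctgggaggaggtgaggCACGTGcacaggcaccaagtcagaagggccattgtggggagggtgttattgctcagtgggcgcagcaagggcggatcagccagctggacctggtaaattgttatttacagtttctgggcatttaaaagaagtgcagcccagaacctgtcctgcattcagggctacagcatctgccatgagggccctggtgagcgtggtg
Ldha, chr7:46845554-46845853, plus strand: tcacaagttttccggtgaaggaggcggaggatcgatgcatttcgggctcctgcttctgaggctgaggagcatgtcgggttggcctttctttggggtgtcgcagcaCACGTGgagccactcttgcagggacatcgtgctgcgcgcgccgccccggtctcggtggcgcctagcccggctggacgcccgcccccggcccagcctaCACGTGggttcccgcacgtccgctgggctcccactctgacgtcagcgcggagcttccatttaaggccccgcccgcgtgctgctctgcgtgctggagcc
Cdk4, chr10:127063285-127063584, plus strand: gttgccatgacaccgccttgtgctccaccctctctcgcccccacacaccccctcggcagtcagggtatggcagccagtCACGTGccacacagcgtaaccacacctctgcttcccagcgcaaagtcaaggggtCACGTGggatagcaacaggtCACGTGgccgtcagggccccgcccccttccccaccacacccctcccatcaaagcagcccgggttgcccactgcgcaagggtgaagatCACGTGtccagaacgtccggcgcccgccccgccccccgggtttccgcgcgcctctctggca

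Atoh8 and Slpi, which hold the motif at -230 and -146 from the start, rose, and Car6, which holds it at -149, fell. Ldha, lactate dehydrogenase A, rose from 1107 and 1041 CPM to 1678 and 1720 CPM, whereas Cdk4, the kinase partner of D cyclins, stood at 656 and 628 CPM in WT Ctrl and at 715 and 644 CPM in WT Myc and was not called (edgeR adjusted p = 0.236).

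Within the network of Myc partners, 12 genes were tested, of which 4 rose and 4 fell, and 2 fell when either WT Ctrl library or WT Myc replicate 2 was left out. Of the 4 rises 3 were antagonists of Myc, and the other was Zbtb17, which encodes Miz1, at 0.35 on the log2 scale. Mxd3 went from 1.27 and 1.16 CPM to 6.76 and 6.21 CPM, Mxd4 from 8.05 and 9.37 CPM to 14.7 and 15.6 CPM, and Mxi1 from 54.5 and 51.7 CPM to 95.8 and 102 CPM. Max, the shared partner, fell slightly, from 67.3 and 70.8 CPM to 58.2 and 59.1 CPM, and the call was lost in each of the 4 fits that left out a library (log2 fold changes of -0.27 to -0.20). Mga fell by 0.47 on the log2 scale, a call lost without WT Ctrl replicate 2 (-0.41) and after the correction for length and GC content (-0.04), and Mnt was not called, at 59.2 and 57.4 CPM in WT Ctrl and 60.2 and 67.2 CPM in WT Myc.

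Genes known to be repressed by Myc moved in both directions: of 22 tested, 9 rose and 6 fell. Ndrg1, a stress-regulated gene, fell from 464 and 484 CPM to 258 and 225 CPM, and Itga6, an integrin subunit, from 368 and 391 CPM to 123 and 147 CPM. Col3a1, a fibrillar collagen, rose from 6.22 and 5.54 CPM to 28.6 and 34.8 CPM. Cdkn1a, which encodes the CDK inhibitor p21, was not called, at 124 and 131 CPM in WT Ctrl and 156 and 134 CPM in WT Myc, although it was without WT Myc replicate 2 (0.29), and Cdkn2b, which encodes p15, was higher by 0.35 ± 0.10, a call lost without WT Ctrl replicate 1 (0.37), WT Ctrl replicate 2 (0.34) or WT Myc replicate 1 (0.17). Cdkn2a, which keeps the p16 transcript in p19/Arf-null cells, was 1.48-fold higher, at 19.6 and 16.8 CPM in WT Ctrl and 29.7 and 24.2 CPM in WT Myc, a call lost without WT Ctrl replicate 2 (0.46).

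The machinery of ribosome production did not move as a single group. Genes of ribosome biogenesis in the nucleolus were lower more often than higher: 22 of 56 fell and 1 rose, with a median of -0.14, and after the correction for length and GC content 29 fell and 3 rose. Rrp12 fell from 80.3 and 76.6 CPM to 44.8 and 43.7 CPM and Pno1 from 106 and 113 CPM to 57.9 and 54.5 CPM, both factors of small-subunit assembly. Nolc1, a nucleolar chaperone, was the member called higher, by 0.28, while 10 were called higher and 19 lower under the scaling by library totals and 5 higher without WT Myc replicate 2. The abundant nucleolar proteins Ncl and Npm1 were not called: Ncl stood at 2515 and 2579 CPM in WT Ctrl and at 2473 and 2497 CPM in WT Myc, and Npm1 at 1214 and 1186 CPM and then at 1388 and 1306 CPM, with a rise called without WT Myc replicate 2 and under the correction (0.21 in both). The direction of Ncl turned under the scaling by library totals and under the correction for length and GC content. In the KO lines 40 of these 56 genes rose and 2 fell, against 21.1% and 20.9% of all genes, with a median of 0.24, and the difference from WT cells was called for 37.

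Cytosolic ribosomal protein genes rose: 51 of 79 were called higher and 0 lower, with a median of 0.30, and in the KO lines 77 rose, with a median of 0.32. Rpl41 stood at 623 and 613 CPM in WT Ctrl and at 1078 and 822 CPM in WT Myc, and Rps26 at 472 and 459 CPM and then at 730 and 614 CPM. These transcripts are short, with a median of 855 bases, and the 521 genes of up to 1000 bases had a median of 0.23. The WT Myc replicates differed by a median of -0.25 over these 79 genes, and 30 were called without WT Myc replicate 1, 31 without WT Ctrl replicate 1, 76 without WT Myc replicate 2 and 20 without WT Ctrl replicate 2. After the correction for length and GC content 34 of 77 were called higher and 2 lower, with a median of 0.13, against 53 higher in the same genes without the correction. Genes of RNA polymerase I, which copies ribosomal DNA, gave 4 rises and 1 fall among 13, with 2 rises without WT Ctrl replicate 1. Polr1c stood at 62.1 and 57.0 CPM in WT Ctrl and 89.3 and 85.4 CPM in WT Myc. Rrn3, its initiation factor, was lower by 0.25, a call lost without WT Ctrl replicate 2 (-0.19), without WT Myc replicate 1 (-0.20) and under the correction (-0.15).

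Of 37 translation initiation factors 8 were higher and 9 lower, near the 21.6% and 22.7% of all genes, with 5 and 5 when WT Ctrl replicate 1 was left out and 4 and 5 without WT Ctrl replicate 2. Eif4g2 fell from 2415 and 2445 CPM to 1417 and 1541 CPM and Eif3c from 1164 and 1188 CPM to 707 and 680 CPM, while Eif5 rose from 324 and 316 CPM to 464 and 439 CPM. Mitochondrial ribosomal protein genes gave 12 rises and 6 falls among 78 (15.4% and 7.69%). Genes of oxidative phosphorylation gave 15 rises and 3 falls among 76 (19.7% and 3.95%). In neither list did the share of rises exceed the 21.6% of all genes. The 12 rises became 7 without WT Ctrl replicate 2, and the 15 became 36 without WT Myc replicate 2, 6 without WT Myc replicate 1 and 5 without WT Ctrl replicate 2. Both lists are short transcripts, with medians of 1213 and 892 bases, and under the correction they gave 11 rises with 15 falls and 9 rises with 12 falls, their medians turning from 0.067 to -0.069 and from 0.14 to -0.014.

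Genes of DNA replication rose together in the libraries labelled WT Myc. Of 50 tested, 39 were called higher and 4 lower, against 21.6% and 22.7% of all genes, and the median log2 fold change was 0.53. Pola2, the regulatory subunit of DNA polymerase alpha, went from 36.1 and 33.6 CPM to 73.5 and 76.0 CPM, and Dna2, a nuclease that processes flaps and forks, from 3.18 and 3.08 CPM to 7.94 and 10.5 CPM. Mcm5, a subunit of the replicative helicase, went from 120 and 110 CPM to 159 and 175 CPM, and Cdc6, which loads that helicase, from 27.98 and 23.5 CPM to 42.7 and 51.4 CPM. Orc2 and Orc4, subunits of the origin recognition complex, fell by 0.57 and 0.59 on the log2 scale. The counts after the correction for length and GC content were again 39 and 4, with a median of 0.56. In the KO lines the median was -0.035, with 9 rises and 10 falls, and the difference was called for 39 of the 50.

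Nucleotide synthesis followed, with 18 of 29 higher and 3 lower and a median of 0.34. Tk1, thymidine kinase of S phase, went from 44.1 and 36.5 CPM to 103 and 102 CPM, and Prps2, which makes the ribose phosphate donor, from 38.4 and 33.1 CPM to 69.2 and 94.4 CPM. Cad, the enzyme that starts pyrimidine synthesis and a classical Myc target, went from 156 and 167 CPM to 202 and 254 CPM. Adss, a purine enzyme, and Atic, the last enzyme of purine ring synthesis, fell by 0.47 and 0.30.

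Among cyclins, kinases and inhibitors of the G1/S step, 12 of 29 were higher and 3 lower, with 7 higher when either WT Ctrl library was left out. E2f1, the S-phase transcription factor, rose from 25.01 and 21.8 CPM to 41.6 and 43.0 CPM, Ccne1, cyclin E1, from 6.85 and 8.07 CPM to 16.5 and 18.4 CPM, and E2f7, an atypical E2F repressor, from 9.75 and 11.8 CPM to 18.6 and 27.7 CPM. The D cyclins went the other way, with Ccnd1 at 808 and 808 CPM in WT Ctrl and 532 and 603 CPM in WT Myc and Ccnd2 at 198 and 216 CPM and then 148 and 158 CPM. E2f4, which the study links to Trim33, was 1.18-fold higher, a call lost without WT Ctrl replicate 1 (0.20), WT Ctrl replicate 2 (0.28) or WT Myc replicate 1 (0.17) and under the correction (0.09). Mitosis genes gave 19 rises and 2 falls among 35. Mybl2, which drives genes of late S phase and mitosis, rose 3.52-fold, from 22.96 and 19.7 CPM to 74.2 and 75.8 CPM, and Cenpa, the centromeric histone, from 64.9 and 61.2 CPM to 108 and 96.2 CPM.

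Genes of the replication stress checkpoint were higher in 14 of 26 and lower in 3, with a median of 0.41, and 17 of 25 were higher after the correction for length and GC content. Timeless, a fork protection factor, went from 42.8 and 36.0 CPM to 74.0 and 78.9 CPM, and Zranb3, which remodels stalled forks, from 8.20 and 7.45 CPM to 16.1 and 17.5 CPM. Recql4, a helicase of replication initiation, fell from 30.4 and 33.2 CPM to 17.3 and 18.1 CPM. Atr, the kinase at the head of the pathway, stood at 61.0 and 62.6 CPM in WT Ctrl and at 34.4 and 51.0 CPM in WT Myc, a fall of 0.53 that was not called without WT Ctrl replicate 2 (-0.51) or under the correction (-0.18). Recql, a helicase that the study followed, stood at 12.8 and 13.6 CPM and at 11.2 and 13.7 CPM, overlapping levels.

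In metabolism, glycolysis genes were called higher in 14 of 19 and lower in 2, with a median of 0.52. Eno1, enolase, rose from 787 and 730 CPM to 1648 and 1595 CPM, 2.14-fold, and Aldoc, an aldolase, from 6.43 and 6.84 CPM to 10.99 and 12.6 CPM. The falls were Slc2a1, the glucose transporter, from 152 and 152 CPM to 76.3 and 78.3 CPM, and Hk2, hexokinase 2, from 181 and 174 CPM to 112 and 126 CPM. Enzymes of one-carbon and serine metabolism gave 3 rises and 6 falls among 12, with 1 rise without WT Ctrl replicate 2. Aldh1l2, a mitochondrial folate enzyme, fell from 305 and 349 CPM to 49.3 and 51.2 CPM, and Psph, the last step of serine synthesis, from 208 and 209 CPM to 107 and 75.5 CPM. Polyamine genes gave 3 rises and 5 falls among 11, with 2 and 2 without WT Ctrl replicate 2, 3 falls without WT Myc replicate 1 and 4 and 3 under the correction. Odc1, the rate-limiting enzyme and a textbook Myc target, fell from 414 and 388 CPM to 303 and 266 CPM.

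Of 25 cholesterol synthesis genes 6 were higher and 6 lower, near the 21.6% and 22.7% of all genes, and in the KO lines 24 fell, against 20.9% of all genes, with a median of -0.83. Dhcr7, a late enzyme of the pathway, went from 25.4 and 26.0 CPM to 40.3 and 45.2 CPM. The rises numbered 9 without WT Myc replicate 1 and 3 without WT Ctrl replicate 2, and the falls 3 without WT Ctrl replicate 1.

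Genes of the integrated stress and unfolded protein responses were lower in the libraries labelled WT Myc. The former response acts through phosphorylation of eIF2 alpha, and the latter enlarges the folding capacity of the endoplasmic reticulum. Of 28 genes 17 fell and 2 rose, with a median of -0.40. Ppp1r15a, the phosphatase subunit that reverses eIF2 alpha phosphorylation, went from 565 and 625 CPM to 174 and 109 CPM, and Atf6, a sensor of misfolded proteins, from 558 and 634 CPM to 190 and 206 CPM. Ddit4, an inhibitor of mTORC1, rose from 196 and 185 CPM to 437 and 349 CPM, and Sdf2l1, a chaperone cofactor, from 6.36 and 7.32 CPM to 15.3 and 13.7 CPM. Gdf15, a stress cytokine, fell from 861 and 846 CPM to 533 and 364 CPM. Aminoacyl-tRNA synthetases fell in 12 of 20 and rose in 3 (1 without WT Ctrl replicate 2), with a median of -0.57. Wars went from 384 and 410 CPM to 130 and 107 CPM and Nars from 1177 and 1195 CPM to 668 and 574 CPM, while Qars and Farsa rose by 0.30 and 0.35, the latter not called without WT Ctrl replicate 2 (0.28).

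The WT Ctrl libraries had the highest mean of the 6 groups for 19 of the 28 stress-response genes and for 15 of the 20 synthetases, against 27.4% of all genes. They had the lowest mean for 35 of the 50 replication genes and 26 of the 35 mitosis genes, against 27.0% of all genes. In the KO lines the median fold change between vectors was 0.80 for the stress-response genes and 0.47 for the synthetases, on the log2 scale. Against the same WT Ctrl libraries, the KO1 Myc and KO2 Myc libraries had medians of -0.68 and -0.77 for the stress-response genes, -0.41 and -0.57 for the synthetases and 0.50 and 0.60 for the replication genes. Those comparisons share their controls with the WT comparison, so that these values stand beside the WT medians and add no separate evidence.

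Lysosome and autophagy genes fell in 21 of 39 and rose in 4, with a median of -0.34. Npc1, the lysosomal cholesterol exporter, went from 43.4 and 50.04 CPM to 17.2 and 21.2 CPM, and Neu1, a sialidase, from 40.4 and 37.9 CPM to 20.1 and 21.4 CPM. Tfeb, the factor that drives lysosomal genes, rose from 5.02 and 4.38 CPM to 17.4 and 15.8 CPM. Proteasome subunits gave 3 rises and 9 falls among 35. Their transcripts are short, with a median of 1512 bases, and the correction gave 3 rises and 17 falls, while there were 7 rises without WT Myc replicate 2. Psmc2, a subunit of the regulatory particle, stood at 282 and 286 CPM in WT Ctrl and 202 and 170 CPM in WT Myc. Chaperonins and heat shock proteins gave 4 rises and 3 falls among 23 (17.4% and 13%), against 21.6% and 22.7% of all genes. With the 4 WT libraries alone there were 2 rises and 2 falls. Hspa9, the mitochondrial Hsp70, fell from 2001 and 2043 CPM to 1160 and 1072 CPM.

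**Figure D4:**
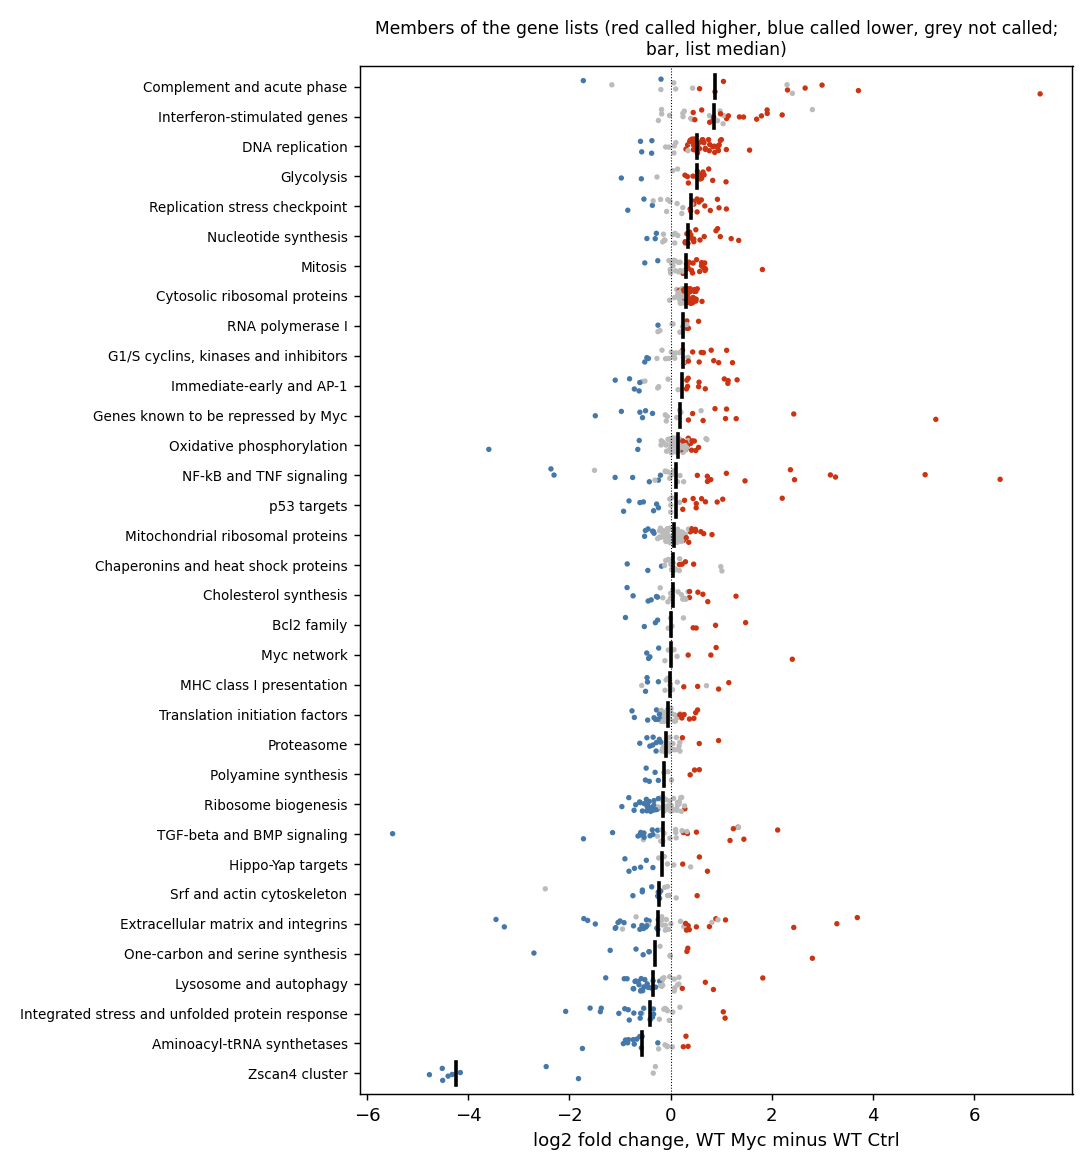
log2 fold change (horizontal axis) of each tested member of the gene lists (rows, ordered by their median), with red points called higher in WT Myc, blue points called lower, grey points not called and a bar at the list median. The DNA replication list has a median of 0.53 and the aminoacyl-tRNA synthetases of -0.57.

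Genes of the extracellular matrix and integrins were more often lower than higher, with 22 of 49 falling and 11 rising and a median of -0.24; their transcripts are long, with a median of 5564 bases, and the counts after the correction were 23 and 12. Serum response factor targets and actin cytoskeleton genes fell in 10 of 17 and rose in 1, with 5 falls without WT Ctrl replicate 1 and 4 under the scaling by library totals or with the 4 WT libraries alone. Cald1, caldesmon, went from 1128 and 1201 CPM to 684 and 706 CPM and Actn1, alpha-actinin 1, from 504 and 538 CPM to 349 and 359 CPM. Hippo-Yap targets gave 3 rises and 6 falls among 14, with Crim1 at 274 and 274 CPM in WT Ctrl and 137 and 156 CPM in WT Myc and Amotl1 at 202 and 221 CPM and then 111 and 128 CPM. The Yap partner Tead2 rose from 86.6 and 87.2 CPM to 143 and 145 CPM.

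TGF-beta and BMP signaling, to which Trim33 is known to contribute, gave 8 rises and 12 falls among 33 (24.2% and 36.4%). All genes gave 21.6% and 22.7%. With the 4 WT libraries alone 5 of 31 rose and 10 fell. The transcripts have a median of 3507 bases. After the correction for length and GC content 9 rose and 9 fell, and the median went from -0.15 to -0.037. Id3, a BMP-induced inhibitor of helix-loop-helix factors, rose from 20.9 and 15.4 CPM to 81.0 and 76.6 CPM, and Tgfbi, a TGF-beta-induced matrix protein, from 9.96 and 7.79 CPM to 24.7 and 23.7 CPM, while the BMP antagonist Grem1 fell 3.3-fold. Immediate-early and AP-1 genes gave 11 rises and 5 falls among 22. Fos rose from 14.7 and 14.8 CPM to 36.4 and 36.9 CPM and Fosb from 21.1 and 24.7 CPM to 42.0 and 58.6 CPM, a call lost without WT Ctrl replicate 1 (1.03), and the MAP kinase feedback genes Dusp4 and Etv5 fell by 1.09 and 0.81 on the log2 scale. After the correction for length and GC content 9 of these 22 rose and 8 fell.

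Interferon-stimulated genes were called higher in 16 of 31 and lower in 0, with a median of 0.85, and in 20 of 31 after the correction for length and GC content, with 1 lower. Many members were low: with a mean of at least 5 CPM 14 remained, of which 10 were called higher, with a median of 0.695. DESeq2 gave 11 rises among the 31. Cxcl10, a chemokine for T cells, had a log2 fold change of 1.91, Stat2, a signal transducer of type I interferon, of 1.36, and Irf1, an interferon-induced factor, of 0.84. Rtp4 stood at 0.706 and 1.02 CPM in WT Ctrl and at 3.71 and 2.90 CPM in WT Myc. The number of rises was 11 without WT Ctrl replicate 2 and 12 without WT Myc replicate 2. In the KO lines 4 rose and 5 fell. Complement and acute-phase genes rose in 8 of 17 and fell in 2, including C3 and C1ra above and Socs3, a feedback inhibitor of cytokine signaling, at 1.04 on the log2 scale. The falls numbered 0 when either WT Ctrl library was left out. Hp, haptoglobin, had 0 counts in both WT Ctrl libraries and 17 and 23 in WT Myc, at least 5.91-fold higher against a floor of 3 counts per library.

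Genes of NF-kB and TNF signaling gave 12 rises and 7 falls among 30. With a mean of at least 5 CPM 24 members remained, of which 7 rose and 7 fell. Cxcl5 rose from 1 and 2 counts in WT Ctrl to 61 and 57 in WT Myc. Icam1 had 0 counts in both WT Ctrl libraries and 10 and 13 in WT Myc. Against the floor of 3 counts per library these rises were at least 17.6-fold and 3.4-fold. Csf2, the cytokine GM-CSF, fell from 182 and 182 CPM to 42.9 and 28.04 CPM, and Il1rn, the antagonist of the interleukin-1 receptor, from 49.8 and 51.8 CPM to 10.5 and 10.1 CPM. MHC class I genes gave 4 rises and 4 falls among 18 (22.2% each), near the 21.6% and 22.7% of all genes. DESeq2 gave 2 rises and 3 falls. The median log2 fold change of the list was -0.013, and without 1 library it ranged from -0.031 to 0.0525. The transcripts of the list have a median of 1776 bases. After the correction for length and GC content 3 of 17 rose and 5 fell, with a median of -0.154. The rises included Psmb10, an immunoproteasome subunit, which went from 11.6 and 9.43 CPM to 22.3 and 18.3 CPM.

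Genes of the p53 pathway, which p19/Arf normally feeds, gave 10 rises and 7 falls among 22, with 3 falls without WT Ctrl replicate 2. Eda2r, a death-domain receptor, rose from 13.6 and 14.97 CPM to 24.6 and 33.7 CPM, and Rrm2b, a ribonucleotide reductase subunit, fell from 38.9 and 37.7 CPM to 20.4 and 22.9 CPM. Gadd45a was lower by 0.49, a call lost without WT Ctrl replicate 1 (-0.55), WT Ctrl replicate 2 (-0.44) or WT Myc replicate 2 (-0.28). Of 12 genes of the Bcl2 family 4 rose and 4 fell, with 2 falls when either WT Ctrl library was left out and 2 rises and 3 falls under the correction. The rises were of Bax, Bbc3, Bmf and Bok, and the falls of Bcl2, Bcl2l1, Bcl2l2 and Bak1. The death promoter Bmf went from 10.3 and 9.71 CPM to 26.5 and 29.5 CPM, and Bok from 19.5 and 19.2 CPM to 37.3 and 34.5 CPM. The survival gene Bcl2l1 went from 247 and 251 CPM to 182 and 166 CPM, and Bcl2l2 from 32.8 and 37.9 CPM to 19.5 and 18.6 CPM.

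The labels call the cells hepatocellular carcinoma from liver, but few hepatocyte markers were measured. Of 22 hepatocyte markers 2 were among the 13107 genes tested, Afp and Ass1, with a summed level of 25.02 to 34.9 CPM, and Alb, Ttr and Hnf4a were not among them. The keratins Krt8 and Krt18 were abundant, Krt18 at 1981 and 1950 CPM in WT Ctrl and at 1546 and 1325 CPM in WT Myc. Of 8 epithelial markers 3 were tested. Both keratins were called lower, whereas Grhl2 rose from 4.59 and 3.69 CPM to 9.24 and 8.34 CPM. The call of Krt8 was lost without WT Ctrl replicate 1 (-0.20) or WT Myc replicate 2 (-0.16). Biliary and progenitor markers moved both ways, with 3 of 6 tested called lower and 2 higher. Sox9, a biliary and progenitor factor, went from 188 and 200 CPM to 80.6 and 70.3 CPM, and Spp1, osteopontin, from 2232 and 2193 CPM to 1076 and 963 CPM. Cd24a rose from 124 and 125 CPM to 171 and 183 CPM, and Cldn4, at low levels, from 0.495 and 0.547 CPM to 1.82 and 2.01 CPM. The call of Cldn4 was lost without WT Ctrl replicate 1 (1.80) or WT Ctrl replicate 2 (1.94). Of 12 mesenchymal markers 11 were tested, of which 3 rose and 2 fell. Leukocyte markers were tested for 2 of 11 genes (summed level 22.2 to 22.4 CPM in WT Ctrl and 31.5 to 38.5 CPM in WT Myc) and endothelial markers for 0 of 9. Ptprc and Pecam1, which define those cell types, were not among the tested genes, and the part of other cells in the results was not tested. In bulk samples a change in the share of cells and a change in RNA per cell cannot be told apart.

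The fold change between vectors in WT cells was then set against the mean fold change in the KO lines, which uses separate libraries. The difference was called for 4543 genes (34.7%), including 3352 of the 5807 genes called in WT cells. Of the genes called in both, 2083 moved in the same direction and 919 in opposite directions, 456 of them higher and 463 lower in WT Myc. Among the named genes of this kind, Aldh1l2 fell by 2.70 in WT cells and rose by 1.32 in the KO lines, Ppp1r15a fell by 2.07 and rose by 1.63, and Gdf15 fell by 0.93 and rose by 1.44. The Ctrl levels of the lines differed, with Gdf15 means of 853 CPM in WT Ctrl, 32.9 in KO1 Ctrl and 68.4 in KO2 Ctrl. Of the 28 stress-response genes 10, and of the 20 synthetases 12, were called in opposite directions, against 7.01% of all genes. Other named genes differed the other way. Cdc6 rose by 0.87 in WT cells, with a mean effect of -0.43 in the KO lines, and Ccne1 rose by 1.22, with a mean effect of -0.41. Among the 79 ribosomal protein genes the difference was called for 1. As Myc transcript rose by 0.07 in WT cells and by 1.44 in the KO lines, the vectors did not give the same increase in the counts of Myc in these lines.

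**Figure D5:**
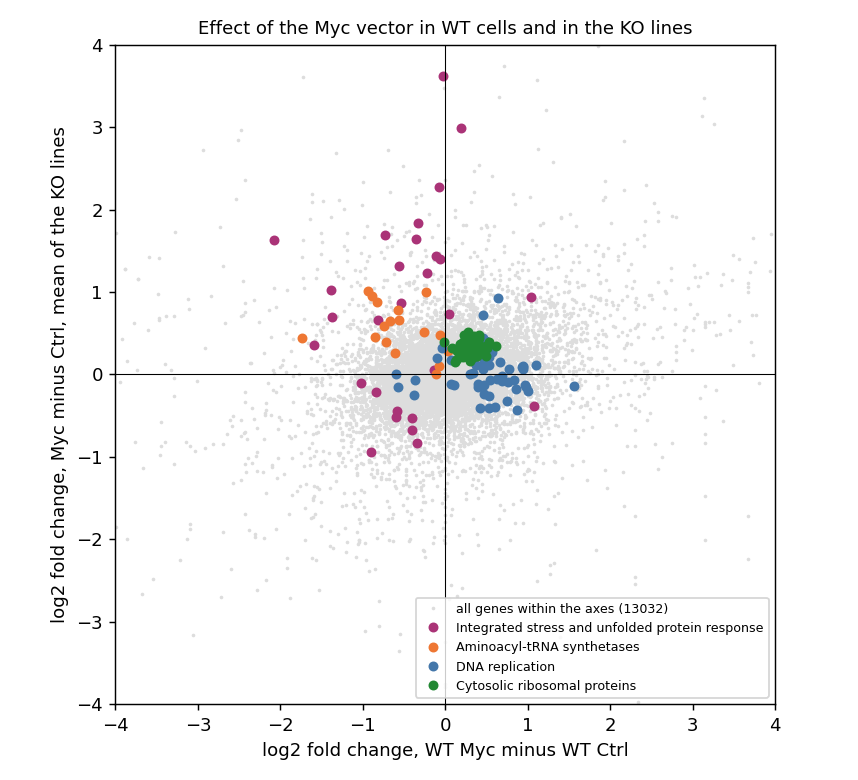
log2 fold change in WT cells (horizontal axis) against the mean log2 fold change in the KO lines (vertical axis), with 1 point per gene for the genes within the axes and 4 lists in color. The medians in WT cells and in the KO lines are -0.40 and 0.80 for stress-response genes, -0.57 and 0.47 for aminoacyl-tRNA synthetases, 0.30 and 0.32 for ribosomal protein genes, and 0.53 and -0.035 for DNA replication genes.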

How the data were processed

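Total RNA of cultured p19/Nras cells was sequenced by the authors, with a NEBNext Ultra II library kit per the labels. The deposited table holds counts per gene for the 12 libraries of the Myc experiment. Although its name calls it normalized, its values are whole numbers with unequal totals, and they were used as raw counts. The submitters' processing notes name STAR 2.5.4, edgeR 3.26.8 and mm9. The counting program and its use of strand are not given in the sources used here, so overlapping and antisense genes are uncertain. Tables of the authors' own comparisons (fold changes, CPM on a log scale, F and p-values) and the hydroxyurea experiment were not used here. Groups came from the sample labels.

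Counts were tested with edgeR 4.0.16 (R 4.3.3): TMM scaling, filterByExpr (which removed 0 genes), a quasi-likelihood fit of all 12 libraries with 1 coefficient per group, and Benjamini-Hochberg adjustment over 13107 genes, called below 0.01. SE is the size of the log2 fold change divided by the square root of F. CPM uses TMM effective library sizes. DESeq2 1.42.0, other scalings, filters and thresholds, a replicate block and fits without each library were alternatives. A further alternative, chosen after seeing the data, entered a lowess trend of each library on transcript length and GC content as an offset. The procedure was tested on simulated data. Named genes were 25 fixed genes, the 10 called genes that rose most and the 10 that fell most (with a symbol, no overlap between groups and a mean of at least 5 CPM), and from each list up to 2 called members each way by size of change. Other genes named were chosen after their values were seen. Members and lists were chosen with earlier results of these data known, and lists are described by counts and medians beside all genes. Transcript lengths and mm9 positions came from GENCODE by symbol, and 10749 of 13107 genes (82%) had a length, that of the longest coding transcript. Promoters came from RefSeq (GRCm38.p6) by gene ID. Library totals of 14753177 to 17949430 counts leave genes below 1 CPM with few reads.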

Additional observations from a re-analysis of the deposited data

Results flagged for a closer look

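The fold change between the Myc and Ctrl vectors differed between WT cells and the KO lines in direction as well as in size for some genes. Of the genes called in both (edgeR, adjusted p below 0.01), 919 moved in opposite directions. Opposite calls make a called difference all but certain, so the test of the difference adds no separate support for these genes. The log2 difference, WT effect minus mean KO effect, is given below for the named genes of this kind. The KO libraries had a larger rise of Myc transcript than the WT libraries (1.44 against 0.07), Trim33 transcript was lower in WT Myc than in WT Ctrl, and the WT effect moved with transcript length. The lines also differed with the Ctrl vector. Aldh1l2 had means of 327 CPM in WT Ctrl, 12.4 in KO1 Ctrl and 15.2 in KO2 Ctrl. Its means were 50.3, 42.7 and 27.3 CPM in WT Myc, KO1 Myc and KO2 Myc. Cdc6, which rose in WT cells, had means of 25.8, 51.1 and 63.1 CPM in these Ctrl groups. Its means in the Myc groups were 47.0, 42.5 and 41.9 CPM. The part of each in these differences was not tested.

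The named genes below fell in WT cells and rose in the KO lines. The difference was -4.02 for Aldh1l2, -3.71 for Ppp1r15a, -2.57 for Psph, -2.36 for Gdf15, -2.18 for Gadd45a and -1.94 for Atf6. It was -2.19 for Wars and -1.94 for Nars among the tRNA synthetases. Sdf2l1, a chaperone cofactor, differed by 1.47, in the other direction.

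Named genes that rose in WT cells and fell in the KO lines had differences of 1.63 for Ccne1, 1.49 for E2f7, 1.30 for Cdc6 and 0.80 for Mcm5. Cyclin D2 (Ccnd2) went the other way, at -1.52. The difference was 2.37 for Fos, 1.73 for Fosb and 2.36 for Id3, each higher in WT Myc. Dhcr7 of cholesterol synthesis differed by 1.47 and the surface marker Cd24a by 0.79.

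Other named genes that fell in WT cells and rose in the KO lines were Hspa9 at -1.44, Hk2 at -1.19, Eif3c at -1.14, H2-K1 at -1.01, Odc1 at -0.70 and Atic at -0.58. The Myc partners Mga and Max differed by -0.72 and -0.55. The largest remaining differences were -5.00 for Angptl6, -3.91 for Fam171b and -2.27 for Ndrg1. Car6 also moved in opposite directions, and no difference is given because a KO group held at most 3 counts in each library.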

How the results depend on the processing

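Genes called numbered 5807 (2837 higher, 2970 lower) and genes with a called difference 4543. Leaving out 1 library gave 3978 to 6054, 1820 to 2862, 2158 to 3192 and 3288 to 5096, lowest each time without WT Ctrl replicate 2. A 2-fold minimum gave 1066 (595 higher, 471 lower) and 1046. DESeq2 called 5051 genes and the 4 WT libraries alone 4401. The length and GC correction, chosen after seeing the data, called 5330 of 10749 genes (5070 without it in the same genes). Of the 5807 calls, DESeq2, the 4 WT libraries alone and the correction kept 5024, 4366 and 4253 in direction. In the 10749 genes without the correction 5011 were kept. RLE scaling called 5807 (2746 higher) and library totals 5932 (3564 higher). No filter changed nothing, as the table held no gene for it to remove. The replicate block gave 5932 (2896 higher, 3036 lower) and 4639. The replicate numbers share no source in the labels, and deviations of same-numbered libraries correlated at -0.372 to 0.496 over 15 pairs of groups, 4 of them over 0.1 (WT Ctrl with WT Myc 0.189), so they were not taken as pairs.

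The named genes that changed direction, 6 in all, were not called in the comparison as reported. Without 1 library, Dntt ranged from -0.13 to 3.16, Nras from -0.064 to 0.19 and Recql from -0.24 to 0.056. Library totals turned Ncl to 0.047 and Recql to 0.0036, and the length and GC correction gave -0.024 for Cdk4, -0.027 for Myc, 0.32 for Ncl (called) and 0.019 for Recql. The cause was not tested. Over all alternatives, named genes kept direction and side of the threshold in 2178 values, lost the call in 91 and gained it in 8, and list counts stayed within 1.5 times in 846 and left that range in 174. With 2 libraries per group, differences below 1 CPM are limited by depth.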
